A study of Mus musculus with 12 samples.

Results

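The clustered protocadherins were followed here in injured mouse brain. Members were chosen by gene symbol, as all genes whose mouse symbol starts with Pcdha, Pcdhb or Pcdhg, which gave 58 genes of the 55638 identifiers in the deposited tables: 14 in the alpha cluster, 22 in the beta cluster and 22 in the gamma cluster. The rule used symbols and no measured value. The family itself was taken up with results of these data in view, so counts of members called are read beside the counts over all genes. The table of the first batch holds values for 57 members and that of the second batch for all 58. Pcdhga10 was not analysed in the first batch.

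Protocadherins are cadherin-like adhesion proteins of the cell membrane. The clustered genes lie head to tail in tandem arrays, and each variable first exon has its own promoter. In the alpha and gamma clusters a variable exon is spliced to constant exons shared by the whole cluster, so the isoforms differ in their extracellular part and carry the same cytoplasmic tail. Beta genes have a single coding exon and no constant exons. Single neurons switch on a small and largely random set of the alternate isoforms, through promoter choice that depends on DNA methylation, CTCF and cohesin. The isoforms bind only their own kind between cells, which lets a neurite tell itself from its neighbours. The C-type isoforms (Pcdhac1, Pcdhac2, Pcdhgc3, Pcdhgc4 and Pcdhgc5) sit at the end of their arrays and are used by many neurons in a more regular way. Astrocytes and other cells also use members of the gamma cluster.

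Bulk mRNA was sequenced from brain of adult male C57BL/6J wild-type mice of 20 to 25 g, in 4 groups of 3 libraries, each counted as 1 mouse. The first batch, dated 2018, holds sham mice (operated without the impact) and mice taken 7 days after traumatic brain injury (TBI) by controlled cortical impact with a 3-mm tip at 1.5 m/s, a depth of 1.5 mm and a dwell of 100 ms. The second batch, dated 2022, holds TBI mice of 7 days and TBI mice given zileuton, an inhibitor of leukotriene synthesis, dissolved in corn oil and injected into the peritoneum each day at 10 mg/kg. The labels name no vehicle for the 2022 TBI mice, while the paper calls the group it compared with zileuton vehicle-treated. The source labels of the zileuton mice read 7, 8 and 9 days where the library names read 7. Columns of the 2022 table can be tied to a group but not to a numbered library, so those mice are called A, B and C. The tissue came from around the contusion, and in such bulk RNA fewer cells of a type and less RNA per cell cannot be told apart. The labels do not tie libraries to separate mice, so p-values measure the spread between these libraries.

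Library totals ran from 42929862 to 48684674 counts in 2018 and from 27845562 to 35453257 in 2022. Gfap, the intermediate filament of reactive astrocytes, was at 188 ± 41.6 CPM (counts scaled to a library of 1000000; SD, n = 3) in sham mice and 2484 ± 211 after TBI, and Cd68, of phagocytic microglia and macrophages, at 7.90 ± 1.00 and 97.3 ± 29.1. Of 12 neuronal markers 6 fell after TBI, with summed levels of 9537 to 10174 CPM in sham mice and 6229 to 7796 CPM after TBI. All 8 microglial, 5 of 7 astrocyte, 4 of 7 oligodendrocyte, 4 of 5 precursor, 3 of 5 endothelial and 4 of 5 fibroblast markers rose. No choroid plexus marker of 5 passed the test, but their sum was uneven, at 18.5 to 1073 CPM in sham mice, 1155 to 1339 CPM in 2018 TBI mice, 8.95 to 1044 CPM in 2022 TBI mice and 14.0 to 1462 CPM with zileuton. No marker stood at 0 in a library. The part of these markers in the members' values was not tested.

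The clusters differ in how much of a gene is its own. In the GENCODE M21 annotation (build GRCm38) all 58 genes lie on the forward strand of chromosome 18, the alpha cluster at 36930184 to 37187661, the beta cluster at 37264938 to 37524479 and the gamma cluster at 37661793 to 37841873. The notes name GRCm39, so these positions are given on GRCm38 only. A base was called a gene's own when no exon of another gene covers it. Alpha genes had a median of 46.4% own exon bases, gamma genes 54.7% and beta genes 100%. Pcdha4 (7.00%) and Pcdha11 (16.8%) had the smallest own share in the alpha cluster; exons of further annotated genes overlap theirs. Pcdhga10 had 0 own bases. Among beta genes Pcdhb12 (36.5%) lies over an antisense gene, while Pcdhb21 (90.3%) and Pcdhb22 (93.1%) overlap each other.

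**Figure D1:**
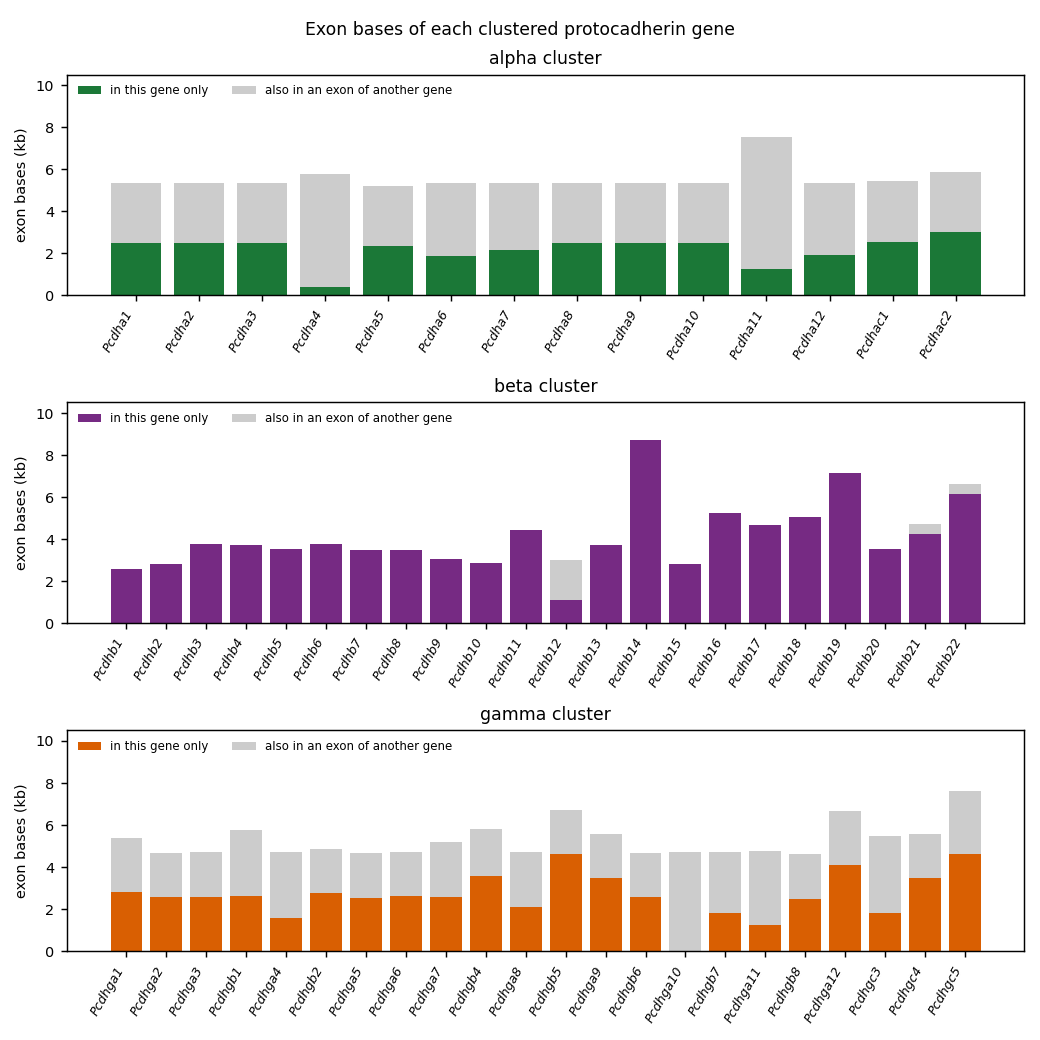
Exon bases (kb) of each of the 58 genes in the order of its array, split into bases of that gene alone (coloured) and bases also covered by an exon of another gene (grey), GENCODE M21. Beta bars are almost wholly coloured, while alpha bars are about as much grey as coloured and Pcdhga10 has no coloured part.

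The deposited tables hold these genes in different kinds of values. The 2018 values are whole counts, and the gene length implied by counts and FPKM equalled the full exon length for all 57 members to within 1 base. In 2022 the values are estimated counts. Of these, 97.6% were not whole numbers in the alpha cluster and 98.5% in the gamma cluster, against 33.3% in the beta cluster and 13.7% over all genes. Every one of the 7 members that was whole in each 2022 library (Pcdhb1, Pcdhb2, Pcdhb4, Pcdhb11, Pcdhb13, Pcdhb15 and Pcdhb16) was a beta gene with 100% own bases.

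The cluster sums differed between batches in the clusters with constant exons and were close in the cluster without them. Summed alpha CPM was 61.3, 52.0 and 59.0 in the 2018 TBI mice and 199, 185 and 168 in the 2022 TBI mice. The gamma sum was 208, 218 and 219 CPM in 2018 and 1005, 1044 and 1023 CPM in 2022. The beta sum was 140, 137 and 135 CPM in 2018 and 145, 149 and 134 CPM in 2022. Batch, counting method and tissue handling cannot be told apart here, and no condition was tested across batches.

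**Figure D2:**
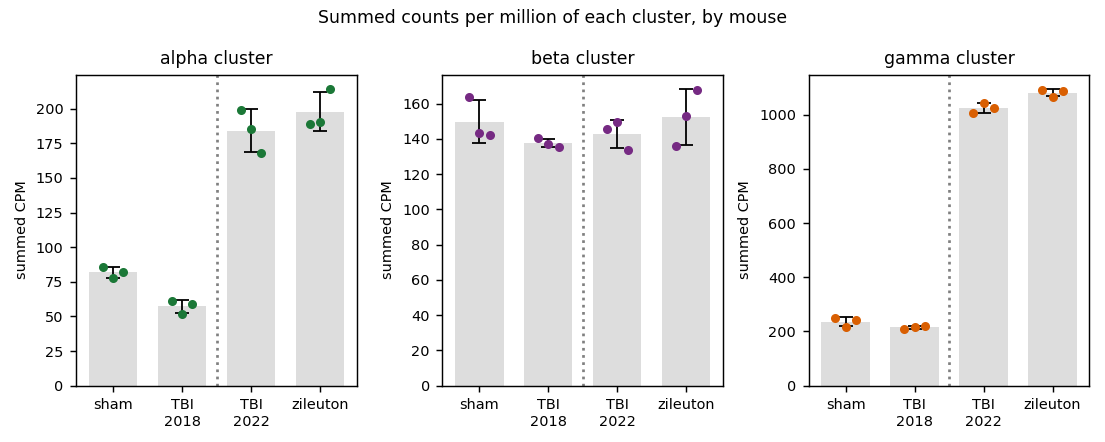
Summed CPM of each cluster in each mouse (points) with the group mean (bar) and SD (whiskers, n = 3); a dotted line parts the 2018 from the 2022 batch. The alpha and gamma sums stand higher in both 2022 groups, the beta sums do not, and in 2018 the 3 TBI mice have lower alpha and beta sums than the 3 sham mice, by a wide margin in alpha and a narrow one in beta.

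Single genes showed the same contrast. Pcdha4 had 0 to 9 counts per library in 2018 and Pcdha11 0 to 6, whereas their 2022 means were 368 and 177 estimated counts. Pcdha6 took 3.20% ± 0.30 (SD, n = 3) of alpha counts in sham and 4.65% ± 1.43 in TBI mice of 2018, but 25.7% ± 1.85 in TBI mice of 2022. Pcdhb12 had a TPM of 2022 that was 4.95 times its FPKM of 2018 in injured mice, against a median of 1.78 for beta genes, 5.62 for alpha and 9.32 for gamma genes. Divided by its own bases instead, the ratio for Pcdhb12 was 1.83 and the beta median 1.81. Other genes stayed apart on that scale: the alpha median was 2.54 with Pcdha6 at 11.2, Pcdha4 at 14.3 and Pcdha11 at 227, and the gamma median 4.39 with Pcdhgc4 at 22.4. Over 57 members of injured mice, the 2022 TPM ranked with the 2018 FPKM at Spearman's rho 0.52, and with 2018 CPM per own kilobase at 0.78. Within clusters those values were 0.56 and 0.64 (alpha, n = 14), 0.73 and 0.85 (beta, n = 22) and 0.96 and 0.89 (gamma, n = 21). The points share libraries and length estimates, so these are descriptions.

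Levels per length put a C-type gene first in both clusters that have one, except for alpha in 2022. In sham mice the alpha cluster was led by Pcdhac2, the isoform that serotonergic axons need for even spacing, at 6.91 ± 0.545 FPKM (SD, n = 3). Pcdha12 (1.38 ± 0.232) and Pcdha5 (1.16 ± 0.216) followed with overlapping ranges, and the alpha median was 0.503 FPKM. The gamma cluster was led by Pcdhgc5 at 12.2 ± 0.995 FPKM, then Pcdhgc3 at 2.97 ± 0.198, each clear of the next gene in all mice. The beta cluster was flatter. Pcdhb17 (3.76 ± 0.363 FPKM), Pcdhb20 (3.62 ± 0.263) and Pcdhb9 (3.43 ± 0.410) led with ranges that overlapped each other, and the beta median was 1.35 FPKM. Pcdhb1 was the lowest beta gene at 0.0219 FPKM, with a mean of 2.83 counts per library. Neighbours in the order were mostly not separable: of 14 alpha, 22 beta and 21 gamma genes in sham mice, 3, 2 and 3 stood clear of the gene below in every mouse.

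In the 2022 TBI mice Pcdha6 (15.9 ± 2.36 TPM) and Pcdhac2 (12.3 ± 2.12) led the alpha cluster without a gap between their ranges, ahead of Pcdha12 (6.35 ± 0.747). Pcdhgc5 (128 ± 13.9 TPM), Pcdhgc3 (94.8 ± 7.02) and Pcdhgc4 (61.4 ± 3.66) led the gamma cluster and stood clear of one another in all mice. Pcdhgc4 is the isoform that cortical interneurons need to survive. It was 4th of 21 gamma genes by FPKM in the 2018 TBI mice, at 1.73 ± 0.180. Pcdhgb6, at 2.09 ± 0.323 FPKM, was 3rd there. These ranks depend on the length used. In CPM per own kilobase Pcdhgc4 had 2.74 and Pcdhgb6 3.75 in those mice, both below Pcdhga11 at 5.99. Among beta genes Pcdhb9 (7.98 ± 0.821 TPM), Pcdhb20 (6.31 ± 0.535) and Pcdhb17 (5.96 ± 0.406) led again.

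The first comparison asked which members differ between injured and sham brain at 7 days. Of 54 members tested, 4 passed an adjusted p under 0.05 in edgeR's quasi-likelihood test: Pcdhgc3 rose, and Pcdhac2, Pcdha9 and Pcdhgb2 fell. That is 7.41% of the members, where 28.0% of the 19536 genes tested passed. Pcdha4, Pcdha11 and Pcdhb1 had too few counts for the test. The members leaned downward, with 42 of 54 lower in TBI mice and a median log2 fold change of -0.18, against a median of 0.02 over all genes, of which 48.5% were lower and 51.5% higher. Over all genes 16.8% were called higher and 11.2% lower. At an unadjusted p under 0.05 there were 10 members, 1 higher and 9 lower, where 39.6% of all genes passed, 22.6% higher and 17.1% lower. In 14 tested members the groups did not overlap, 1 higher and 13 lower. Over all genes that share was 44.4%, 24.6% higher and 19.8% lower.

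Pcdhgc3, which binds Axin1 to restrain Wnt signalling and promotes dendrite branching in cortical neurons, had 16.6, 17.7 and 15.5 CPM in the sham mice and 26.9, 26.3 and 25.0 CPM in the TBI mice. Every TBI mouse stood above every sham mouse. The log2 fold change was 0.65 ± 0.09 (SE), or 1.57-fold (adjusted p = 0.0011, edgeR). Its share of all gamma counts went from 7.10% ± 0.96 to 12.1% ± 0.76 (SD, n = 3). It was the one member of 54 called higher, and 33.1% of its exon bases were its own. The choroid plexus sum was 18.5 to 1073 CPM in sham and 1155 to 1339 CPM in these TBI mice. The astrocyte marker sum was 4582 to 5195 CPM in sham and 8266 to 8537 CPM in TBI mice. The microglial sum was 268 to 316 and 1150 to 1673 CPM, while the neuronal sum was lower after TBI. The part of any of these cell types in the Pcdhgc3 values was not tested. An antisense gene over its exons, BC037039, had 1 to 9 counts in sham and 7 to 34 counts in TBI libraries, against 737 to 1322 for Pcdhgc3. Whether counting used strand is not given in the sources used here, and the part of antisense reads in the Pcdhgc3 counts was not tested.

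The other C-type genes did not follow. Pcdhac2 had 43.8, 37.6 and 43.1 CPM in sham and 29.6, 24.5 and 28.6 CPM in TBI mice, with no overlap, for a log2 fold change of -0.59 ± 0.10 (adjusted p = 0.0031). Its share of alpha counts, 50.6% ± 2.23 in sham and 48.0% ± 0.82 in TBI mice, overlapped between the groups. Pcdhgc5, the most abundant member in 2018 and one that partners GABA-A receptors at synapses, had 101, 85.8 and 97.7 CPM in sham and 79.6, 75.5 and 88.5 CPM in TBI mice, with overlap. Its log2 fold change of -0.22 ± 0.09 did not pass (adjusted p = 0.099). Pcdhgc4 had 11.3, 10.3 and 10.1 CPM in sham and 8.45, 10.1 and 10.1 CPM in TBI mice, with the highest TBI mouse just under the lowest sham mouse (log2 fold change -0.15 ± 0.13, adjusted p = 0.44). Pcdhac1 had 3.50 to 4.73 and 2.55 to 3.68 CPM (-0.41 ± 0.21, adjusted p = 0.19).

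The alpha sum showed the largest shift of the 3 clusters. It held 85.6, 78.1 and 82.0 CPM in sham and 61.3, 52.0 and 59.0 CPM in TBI mice, so all TBI mice lay below all sham mice, and the mean was 0.701 of sham. The C-type part (45.6 ± 3.94 to 30.7 ± 3.25 CPM, SD, n = 3) and the alternate part (36.3 ± 1.30 to 26.7 ± 1.56 CPM) were both lower. Of 12 alpha genes tested 11 were lower, with a median log2 fold change of -0.45, and 2 passed the test. Pcdha9, an alternate isoform, had 6.93, 5.38 and 6.02 CPM in sham and 2.74, 3.86 and 2.83 CPM in TBI mice without overlap (log2 fold change -0.96 ± 0.20, adjusted p = 0.0079). Pcdha8 (-0.90 ± 0.50, adjusted p = 0.22) and Pcdha1 (-0.66 ± 0.40, adjusted p = 0.26) had the next largest estimates, from means of 26.8 and 53.3 counts per library, and neither passed. The 12 neuronal markers had a median log2 fold change of -0.35, and the part of the neuronal fall in the alpha values was not tested.

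Beta genes showed no call. Their sum was 164, 143 and 142 CPM in sham and 140, 137 and 135 CPM in TBI mice. The TBI mice again lay below the sham mice, by a smaller step (0.920 of sham), and the median log2 fold change over 21 genes was -0.09. The estimates ran from -0.39 to 0.22. The largest were Pcdhb19 (10.8 to 12.1 CPM in sham, 7.43 to 10.7 in TBI, log2 fold change -0.39 ± 0.16, adjusted p = 0.11), Pcdhb5 (-0.37 ± 0.26, adjusted p = 0.34) and Pcdhb13 (-0.37 ± 0.25, adjusted p = 0.32). For 10 of the 21 the 95% interval stayed within a 1.5-fold change either way, so a larger change was not seen for those genes at this depth.

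The gamma cluster other than its C-type genes went from 114 ± 9.66 to 98.1 ± 6.84 CPM (SD, n = 3) with overlapping mice. Of 18 such genes 15 were lower. Pcdhgb2 had 5.84, 5.02 and 6.5 CPM in sham and 4.25, 3.20 and 3.97 CPM in TBI mice without overlap, for a log2 fold change of -0.60 ± 0.19 (adjusted p = 0.040). That call was lost in 10 of 19 alternative fits, with an adjusted p of up to 0.18. Pcdhga9 had 7.52 to 7.70 CPM in sham and 5.04 to 6.14 CPM in TBI mice, and did not pass (-0.40 ± 0.15, adjusted p = 0.071). The gamma median was -0.18 over 21 genes.

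**Figure D3:**
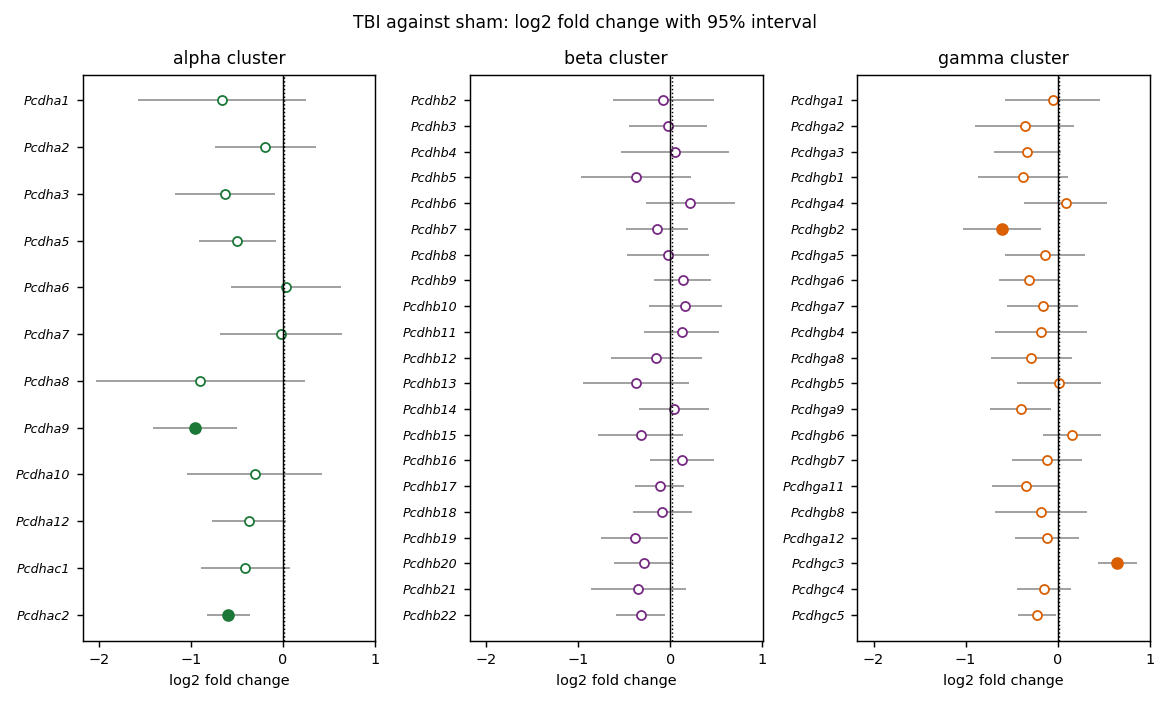
Log2 fold change of TBI against sham (x axis) with its 95% interval for the 54 tested members, by cluster in array order; filled points passed an adjusted p under 0.05 (edgeR), and the dotted line is the median of all genes. Points lie mostly left of 0 in the alpha, beta and gamma clusters, and Pcdhgc3 is the one filled point on the right.

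**Figure D4:**
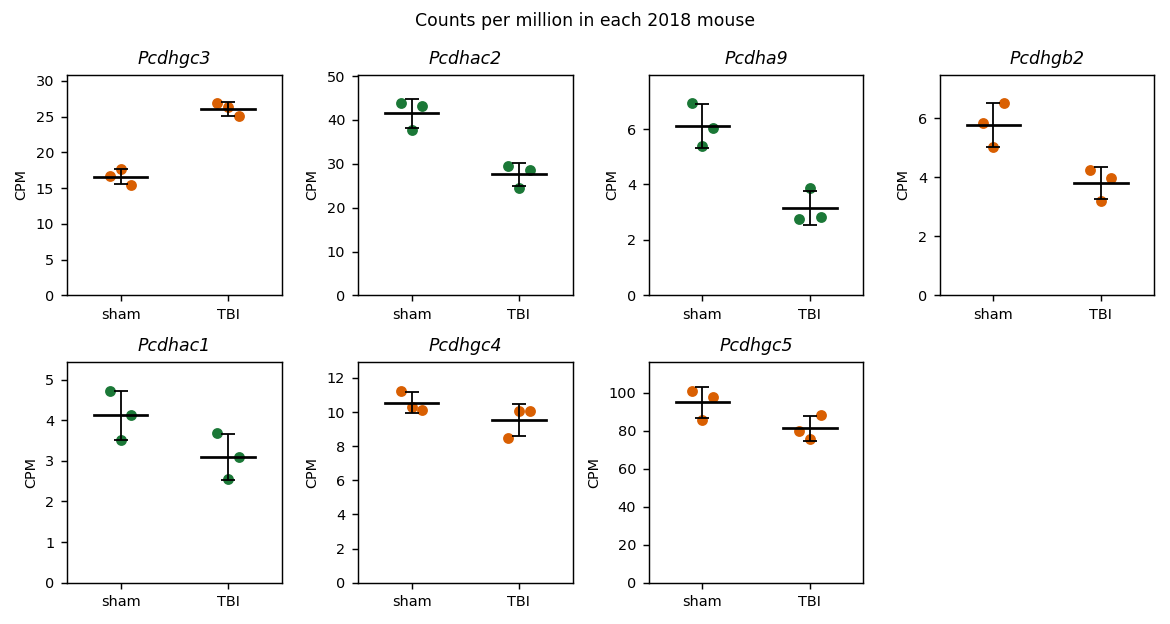
CPM in each 2018 mouse (points), with the group mean (line) and SD (whiskers, n = 3), for the 4 called members (top row) and the remaining C-type genes (bottom row), each axis starting at 0. Pcdhgc3 stands higher in all TBI mice, the other 3 genes of the top row lower, and in the bottom row the groups overlap (Pcdhac1, Pcdhgc5) or nearly meet (Pcdhgc4).

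Among related and regulatory genes, the non-clustered protocadherins that passed were all lower, while promoter and enhancer factors that passed went both ways. Of 12 non-clustered protocadherins, single genes elsewhere in the genome that build related adhesion proteins, Pcdh7 (log2 fold change -0.60 ± 0.11, adjusted p = 0.0044) and Pcdh11x (-0.57 ± 0.16, adjusted p = 0.029) fell, none rose, and the median was -0.21. Those 2 were 16.7% of that list. Of 21 factors that act on the cluster promoters and enhancers 3 passed (14.3%), 1 higher and 2 lower, and the median was -0.08. Over all genes 28.0% passed, 16.8% higher and 11.2% lower. Pds5b, a cohesin regulator, was 1 of the 2 lower factors (-0.30 ± 0.06, adjusted p = 0.0085). Rest, a repressor of neuronal genes, was the higher one (0.87 ± 0.20, adjusted p = 0.012). Ctcf had 72.8 ± 1.71 CPM in sham and 66.9 ± 4.43 CPM in TBI mice (SD, n = 3) and did not pass (adjusted p = 0.265). Dnmt3b, which methylates the variable promoters early in development, was low, at 0.289 to 0.589 CPM in sham and 0.534 to 1.02 CPM in TBI mice, and did not pass (adjusted p = 0.135). For 19 of the 21 factors the 95% interval lay within a 1.5-fold change.

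Of 16 cytoplasmic partners and processing enzymes 9 passed, 4 higher and 5 lower, with a median of -0.10, where 28.0% of all genes passed, 16.8% higher and 11.2% lower. The gamma tail binds focal adhesion kinases, and the alpha tail binds the WAVE complex that builds branched actin. Of that complex Cyfip2 (848 ± 27.8 to 567 ± 59.2 CPM, SD, n = 3, adjusted p = 0.0020), Nckap1, Abi2 and Wasf1 fell, and Cyfip1 rose (75.3 ± 6.45 to 124 ± 10.2 CPM, adjusted p = 0.00059). Marcks, an actin-binding substrate of protein kinase C that the gamma tail restrains from phosphorylation (log2 fold change 0.63 ± 0.09, adjusted p = 0.0014), the kinase gene Fyn (0.31 ± 0.06, adjusted p = 0.0076) and Rac1 (0.24 ± 0.07, adjusted p = 0.040) rose. Nlgn1, a synaptic adhesion gene whose protein binds gamma protocadherins, fell (-0.43 ± 0.07, adjusted p = 0.0026). Ptk2 and Ptk2b, the focal adhesion kinases, had log2 fold changes of -0.09 ± 0.12 and -0.19 ± 0.10 and did not pass. Adam10, a protease that cuts protocadherins at the membrane, had 0.09 ± 0.07 and did not pass.

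The second comparison asked what zileuton changed in injured mice. No member of 57 tested and no gene of 17363 (0%) passed an adjusted p under 0.05 in edgeR. At an unadjusted p under 0.05 there were 3 members, all higher with zileuton, where 6.83% of all genes passed, 2.93% higher and 3.9% lower: Pcdhga4, Pcdhga6 and Pcdha4. DESeq2 called 27 genes in all, Pcdhga4 and Pcdhga6 among them. The same 3 members were the ones whose groups did not overlap, against 13.6% of all genes, 6.5% higher and 7.05% lower. Of the 57 members 41 were higher and 16 lower, where 50.7% of all genes were higher and 49.3% lower. The median log2 fold change was 0.08 over the members and 0.00 over all genes. With the trend in gene length taken out of each library the members' median was 0.01.

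Pcdhga4 had 25.3, 26.1 and 22.6 CPM in the TBI mice and 34.3, 35.0 and 34.8 CPM in the zileuton mice. Every treated mouse was higher, and the log2 fold change was 0.49 ± 0.09 (SE; unadjusted p = 0.00043, adjusted p = 0.71, edgeR). Pcdhga6 had 33.4, 36.0 and 32.5 CPM in TBI and 43.1, 45.0 and 46.2 CPM in zileuton mice (0.40 ± 0.08, unadjusted p = 0.00081, adjusted p = 0.71). Pcdha4 had 11.2, 10.1 and 7.48 CPM in TBI and 14.7, 14.9 and 14.0 CPM in zileuton mice (0.60 ± 0.15, unadjusted p = 0.0043, adjusted p = 0.71). All 3 are alternate isoforms, with 33.2%, 55.2% and 7.00% own exon bases, and their 2022 values are estimated counts. In 2018 Pcdhga4 had 4.02 to 5.99 CPM in sham and 4.71 to 5.32 CPM in TBI mice, and Pcdhga6 8.41 to 10.2 and 7.10 to 8.5 CPM, and neither passed there.

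The members that changed with TBI in 2018 showed no call with zileuton. Pcdhgc3 had 209, 236 and 256 CPM in TBI and 274, 230 and 230 CPM in zileuton mice, with overlap (log2 fold change 0.07, 95% interval -0.17 to 0.31). Pcdhac2 had 46.9, 40.5 and 35.6 against 36.9, 41.1 and 52.4 CPM (0.08, -0.26 to 0.42). Pcdha9 had 9.89, 12.2 and 11.3 against 12.9, 9.64 and 10.8 CPM. Pcdhgb2 had 20.0, 22.4 and 14.6 against 25.3, 20.3 and 19.7 CPM (0.19, -0.20 to 0.58). The remaining C-type genes had log2 fold changes of 0.06 ± 0.08 (Pcdhgc5), -0.11 ± 0.08 (Pcdhgc4) and 0.32 ± 0.18 (Pcdhac1).

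By cluster, the alpha sum was 168 to 199 CPM in TBI and 189 to 214 CPM in zileuton mice, and the beta sum 134 to 149 and 136 to 168 CPM, both with overlap. The gamma sum was 1005, 1044 and 1023 CPM in TBI and 1089, 1066 and 1087 CPM in zileuton mice. The 3 zileuton mice stood above the 3 TBI mice by a ratio of means of 1.06. Median log2 fold changes were 0.03 over 14 alpha, 0.11 over 21 beta and 0.08 over 22 gamma genes. With the length trend removed they were -0.06, 0.08 and 0.01. Besides Pcdha4, the largest alpha and beta estimates were those of Pcdha5 (-0.38 ± 0.38), Pcdhac1, Pcdhb21 (0.49 ± 0.26), Pcdhb11 (0.30 ± 0.26) and Pcdhb14 (0.27 ± 0.16), and none passed. For 42 of 57 members the 95% interval lay within a 1.5-fold change, 21 of 22 in the gamma cluster, 12 of 21 in the beta cluster and 9 of 14 in the alpha cluster.

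**Figure D5:**
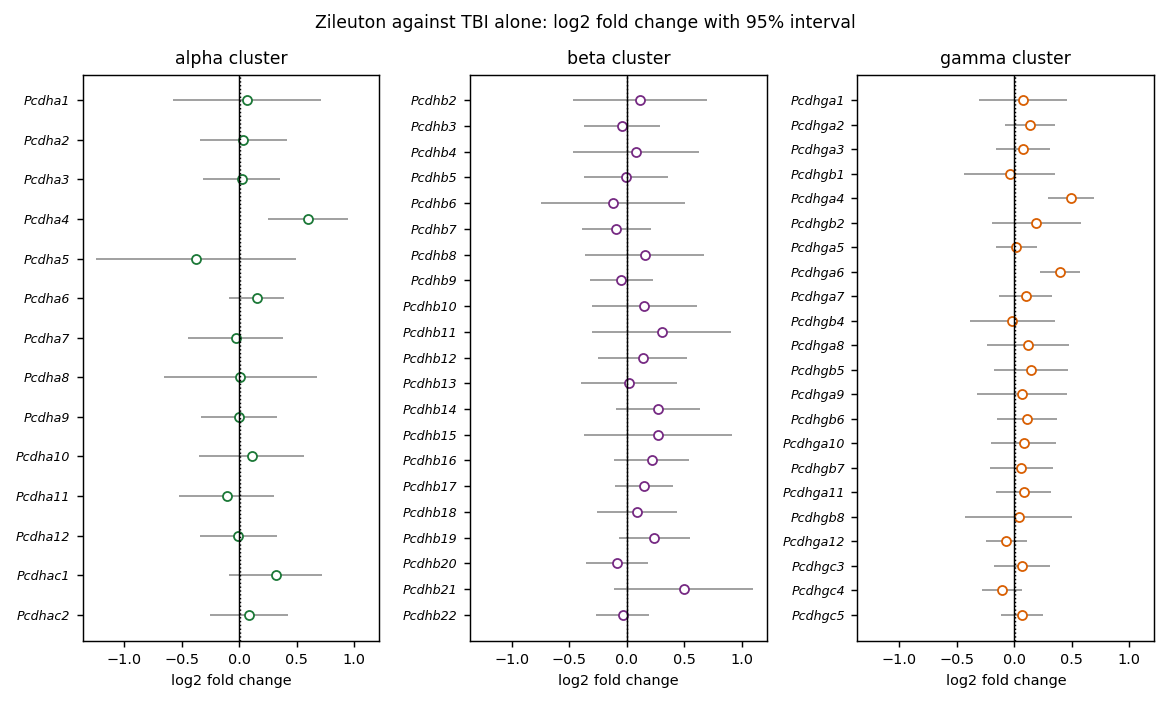
Log2 fold change of zileuton against TBI alone (x axis) with its 95% interval for the 57 tested members, by cluster in array order; open points did not pass an adjusted p under 0.05 (edgeR), and the dotted line is the median of all genes. No point is filled, and Pcdhga4, Pcdhga6 and Pcdha4 have intervals to the right of 0.

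None of the 12 non-clustered protocadherins, 21 promoter and enhancer factors and 16 partners and processing enzymes passed with zileuton. Their median log2 fold changes were 0.08, 0.03 and 0.01. At an unadjusted p under 0.05 there were 1, 4 and 0 genes: Pcdh8 lower, the cohesin subunit gene Smc3 lower, and Mau2, Dnmt3a and Wiz higher, named after their values were seen. Over all genes 6.83% passed at that level, 2.93% higher and 3.9% lower.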

How the data were processed

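Poly(A) mRNA of 12 mice was sequenced in paired ends. The notes of the deposit list HISAT2, featureCounts, Subread, DESeq2 and GRCm39, with no roles or versions. For 2018 the authors deposited whole-number counts and FPKM per gene. For 2022 the authors deposited estimated counts, of which 13.7% are not whole numbers, and TPM, with 223 identifiers that start with MSTRG. How reads in shared exons were assigned is not given in the sources used here. Estimated counts were rounded. Each batch was fitted alone with edgeR 4.0.16 (R 4.3.3; TMM, filterByExpr, quasi-likelihood test), over all genes, with Benjamini-Hochberg adjustment and a threshold of 0.05. CPM used TMM-scaled library sizes. SE was the size of the log2 fold change divided by the square root of the F statistic. Alternatives used DESeq2 1.42.0 and limma 3.58.1. Own exon bases came from GENCODE M21; 2 genes that share the symbol Pcdha11 in the names table were told apart as Pcdha10 and Pcdha11 by start position. Figures used matplotlib 3.10.9. The fit was tested on simulated data. Depth limits genes with few counts, and intervals, like the p-values, measure the spread between these libraries.

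Genes named with values were called members, C-type members, the 3 highest per length in each cluster and batch, and the 3 largest changes in each cluster and comparison. Members and lists were chosen with earlier results of these data known. No protein or DNA sequence of a member is printed here, and some list genes are not reported here.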

Additional observations from a re-analysis of the deposited data

How the results depend on the processing

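Pcdhgc3 and Pcdhac2 passed in all 19 alternative fits of TBI against sham, Pcdha9 in 17 and Pcdhgb2 in 9. Members called numbered 2 with limma on log2(FPKM + 1) without a filter and with the equal-variance test on FPKM, and 4 in the fit described above. Leaving out 1 mouse gave 3 to 6, the most without sham mouse 2, when Pcdha5 and Pcdhgc5 (adjusted p = 0.044) also passed. Pcdhb19 passed without TBI mouse 2 (adjusted p = 0.020). DESeq2 and the fit without TBI mouse 1 each called 5, with Pcdha3, named after its values were seen. Pcdhgb2 was lost without sham mouse 1, sham mouse 3, TBI mouse 2 or TBI mouse 3 (adjusted p from 0.068 to 0.13). Members at an unadjusted p under 0.05 numbered 10, and 7 to 15 without 1 mouse. They numbered 4 in each of the 3 limma fits on FPKM and 6 in the equal-variance test. That test and the limma fits with a filter covered 6 alpha, 21 beta and 18 gamma genes. All genes at that level numbered 7741, and 6814 to 7368 without 1 mouse. In the limma fits they numbered 6516 to 8021, and in the equal-variance test 5832. All genes called numbered 5479, 2625 in the equal-variance test and 3848 to 5649 in other fits of the counts except DESeq2 (6026). Halving the 2018 counts, chosen after seeing the data because 55.0% of the counts above 0 over all genes were even (51.3% for the members), gave 4 members.

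For zileuton, all genes called numbered 0, 27 with DESeq2, 4 with no filter beyond 1 count, 4 with limma on log2(TPM + 1) and 3 on log2(TPM + 0.1), and members called 2 with DESeq2. Members at an unadjusted p under 0.05 numbered 3, and 3 to 6 without 1 mouse. They numbered 5 without TBI mouse B and 6 without zileuton mouse A. Pcdhga4, Pcdhga6 and Pcdha4 were among them in all 19 alternatives. All genes at that level numbered 1186, and 689 to 1909 without 1 mouse. That count also rose in the same 2 fits, to 1433 without TBI mouse B and 1909 without zileuton mouse A. Pcdhac2 turned to -0.020 with the length trend removed and ran from -0.070 to 0.19 without 1 mouse. Pcdhgc3 ran from -0.019 to 0.14 there. The causes were not tested.

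Deviations of same-numbered libraries correlated at -0.02, -0.09 and -0.03 in 2018 and at -0.28, 0.06 and -0.28 in 2022. Differently numbered libraries were not compared, so these values cannot show whether replicate numbers pair the mice. With a replicate block 3 members and 4337 genes were called for TBI, Pcdhgb2 being lost (adjusted p = 0.055), and 0 members and 0 genes for zileuton. Low counts limit Pcdha1, Pcdha8 and Pcdhb1, and shared exons limit what a value of an alpha or gamma gene can be assigned to.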
